A study of Mus musculus with 13 samples.

Results

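The genes described here are 39 genes of cholesterol and fatty acid synthesis, chosen by name, with earlier results of these data known, by a rule that used no measured value. All 39 were found among the 21100 genes of the count table, of which 16687 had a value in every tumor. They comprise 17 enzyme genes of sterol synthesis, 6 genes of sterol control and transport, 4 of fatty acid synthesis, 4 desaturases, 6 elongases and 2 genes of sebaceous lipids. The study compared 2 mouse models of basal cell carcinoma (BCC) by RNA sequencing of whole tumors, to learn how closely a transplantable model resembles its parent.

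GEM-BCC tumors, 9 from 7 mice, grew intradermally in female Ptch1+/- K14-CreER2 p53fl/fl mice (CreERT2 in the methods) after 3 intraperitoneal injections of 300 µg tamoxifen and 1 X-ray dose of 4 Gy. In these mice 1 allele of the Hedgehog receptor gene Ptch1 is lost throughout the body, and Cre, driven by the keratin 14 promoter of basal keratinocytes, deletes p53 after tamoxifen. Tp-BCC tumors, 4 from 4 mice, grew under the skin of the right flank of female Ptch1+/-p53fl/fl mice inoculated with 2000000 tumor cells. All Tp-BCC tumors descended from a single GEM-BCC tumor, so they represent 1 tumor line passaged in several hosts. Tumors GEM2 and GEM3 grew on the same mouse, as did GEM7 and GEM8. Both groups carried the Ptch1+/- and floxed p53 alleles, no untreated skin was analysed here, and every GEM-BCC library belonged to batch 1 and every Tp-BCC library to batch 2, so that model and batch cannot be told apart.

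Cells build cholesterol from acetyl-CoA through mevalonate, the isoprenoid pyrophosphates, squalene and lanosterol. When sterol in the endoplasmic reticulum is low, SCAP carries the precursor of the transcription factor SREBP-2 (from Srebf2) to the Golgi, where it is cleaved to a form that switches on the enzyme genes, whereas INSIG1 holds the complex back when sterol is plentiful. SREBP-1 (from Srebf1) acts likewise on genes of fatty acid synthesis, where ACLY and ACSS2 supply acetyl-CoA, ACACA makes malonyl-CoA, FASN assembles palmitate, and elongases and desaturases lengthen and desaturate the product. Epidermis and sebaceous glands make much of their own lipid, and in Hedgehog signalling, the pathway that drives BCC, cholesterol is attached to the ligands and binds Smoothened.

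Many sterol enzyme genes have a proximal control region in which SREBP binds a sterol regulatory element beside NF-Y, which binds the letters CCAAT. Promoter windows from RefSeq (build GRCm38.p6), each of 300 bases from 250 before to 50 after an annotated start, were at hand for 30 of the 39 genes, in 37 windows. The windows of Hmgcs1, the first enzyme gene of the pathway in the set, and of the genes that differed between the models are printed here, 5′ to 3′ on the gene's strand, with capitals marking CCAAT on either strand (ATTGG on the strand shown) and, in Hmgcs1, a classical sterol regulatory element. For Elovl1 only the window with CCAAT is printed.

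Hmgcs1 (chr13:119690101-119690400, + strand): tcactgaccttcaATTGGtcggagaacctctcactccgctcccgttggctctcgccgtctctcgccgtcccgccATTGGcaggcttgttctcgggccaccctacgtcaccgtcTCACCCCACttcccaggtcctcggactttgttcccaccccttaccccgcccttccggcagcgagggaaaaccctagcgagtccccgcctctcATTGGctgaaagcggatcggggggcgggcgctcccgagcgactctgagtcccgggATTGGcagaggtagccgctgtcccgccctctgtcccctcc

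Mvk (chr5:114444019-114444318, + strand): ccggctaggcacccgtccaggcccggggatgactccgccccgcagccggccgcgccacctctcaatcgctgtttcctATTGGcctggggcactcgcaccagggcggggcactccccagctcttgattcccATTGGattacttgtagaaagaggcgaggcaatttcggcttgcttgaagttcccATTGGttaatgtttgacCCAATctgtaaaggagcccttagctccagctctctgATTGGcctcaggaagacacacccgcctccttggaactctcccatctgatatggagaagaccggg

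Mvd (chr8:122443373-122443672, - strand): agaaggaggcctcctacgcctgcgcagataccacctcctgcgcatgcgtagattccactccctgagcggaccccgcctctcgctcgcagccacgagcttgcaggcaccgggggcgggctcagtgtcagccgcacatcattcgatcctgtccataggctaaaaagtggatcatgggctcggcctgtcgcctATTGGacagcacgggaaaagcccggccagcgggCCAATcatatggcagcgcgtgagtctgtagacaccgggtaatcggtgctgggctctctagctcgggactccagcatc

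Msmo1 (chr8:64733529-64733828, - strand): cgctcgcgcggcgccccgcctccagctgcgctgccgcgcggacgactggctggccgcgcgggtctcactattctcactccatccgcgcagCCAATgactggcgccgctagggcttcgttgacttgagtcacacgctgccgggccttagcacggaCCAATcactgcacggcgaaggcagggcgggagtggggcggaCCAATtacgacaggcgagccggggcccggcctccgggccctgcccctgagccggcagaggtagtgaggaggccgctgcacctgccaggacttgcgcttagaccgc

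Tm7sf2 (chr19:6067801-6068100, - strand): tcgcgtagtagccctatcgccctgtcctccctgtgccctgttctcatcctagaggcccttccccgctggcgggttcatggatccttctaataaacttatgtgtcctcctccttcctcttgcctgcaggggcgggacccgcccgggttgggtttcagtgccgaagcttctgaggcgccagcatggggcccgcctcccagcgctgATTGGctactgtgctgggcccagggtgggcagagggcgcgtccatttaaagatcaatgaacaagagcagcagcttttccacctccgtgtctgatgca

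Elovl1 (chr4:118427843-118428142, + strand): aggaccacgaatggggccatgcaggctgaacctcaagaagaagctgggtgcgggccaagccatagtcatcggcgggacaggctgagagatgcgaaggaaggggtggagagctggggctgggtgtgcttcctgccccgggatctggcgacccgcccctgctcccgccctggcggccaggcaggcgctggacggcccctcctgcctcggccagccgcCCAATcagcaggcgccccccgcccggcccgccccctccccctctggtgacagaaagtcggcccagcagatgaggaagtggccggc

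The letters CCAAT, on either strand, stood in 25 of the 37 windows (67.6%) and in 14 of the 17 windows of sterol enzyme genes (82.4%), against 37.4% of all 32851 windows in the table. Mvk had 5 copies, Hmgcs1 4, Msmo1 3, Mvd 2, and Tm7sf2 and the printed Elovl1 window 1 each. The GC box GGGCGG, which Sp1 binds, stood in 29 of the 37 windows (78.4%), against 35.7% of all windows. The sterol regulatory element in the form TCACNCCAC was present in 1 of the 37 windows (2.70%), as TCACCCCAC beginning 137 bases before the start of Hmgcs1, against 1.24% of all windows. The letters were searched on both strands, GGGCGG is left in lower case, and none of the 3 motifs contains another. These matches describe the letters of the windows and carry no test. Genes that were higher and genes that were lower in Tp-BCC tumors both had CCAAT in the windows printed. Elovl1 has another window (chr4:118429451-118429750), not printed, with 0 copies.

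Expression was measured in expected counts per gene, the number of reads the authors' software assigned to each gene. Levels are given as counts per 1000000 counts (CPM) after scaling for library composition. Total counts were 28075317 to 32629102 in GEM-BCC tumors, against 15388027 to 17494912 in Tp-BCC tumors. Of the 39 genes, 37 reached at least 10 counts in at least 4 tumors and were tested; Elovl3 and Mc5r did not. Within the models no pair of tumors was as alike as repeat sequencing of 1 library would be: the closest pair, TP1 and TP3, still differed by a mean chi-square of 13.1 per gene, where sampling noise alone gives about 1. Basal keratinocyte and BCC markers, with Krt5 and Krt14 among them, were abundant in both models (summed level of 8 genes 12170 to 17860 CPM in GEM-BCC tumors, against 9323 to 21800 CPM in Tp-BCC tumors), and 0 of the 8 passed the models' test (3 by an unadjusted p under 0.05, 0 with DESeq2). After each tumor's trend on the GC content of transcripts was removed, Krt14 was lower in Tp-BCC tumors (log2 fold change -1.03, edgeR adjusted p = 0.0143) and Hhip, a Hedgehog target gene, was higher (1.43, adjusted p = 0.0128).

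Together the 39 genes took 0.351 to 0.580% of all counts in GEM-BCC tumors, against 0.413 to 0.500% in Tp-BCC tumors, so the Tp-BCC range lay within that of GEM-BCC. The summed level of the 17 sterol enzyme genes was 725 to 1182 CPM in GEM-BCC tumors, and it was 843, 981, 926 and 915 CPM in TP1 to TP4. The summed level of the 14 genes of fatty acid synthesis, desaturation and elongation was 2206 to 4128 CPM in GEM-BCC tumors, against 2313 to 3602 CPM in Tp-BCC tumors. For both sums every Tp-BCC tumor lay inside the GEM-BCC range.

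Differences between the models were tested with the quasi-likelihood F test of edgeR over all 14390 tested genes, 2-sided, with Benjamini-Hochberg adjustment over all of them. Of the 37 genes, 5 (13.5%) had an adjusted p under 0.05, compared with 19.4% of all tested genes. Mvk, Mvd and Elovl1 were higher in Tp-BCC tumors, 3 genes where 11.1% of all genes were higher, and Tm7sf2 and Msmo1 were lower, 2 genes where 8.35% of all genes were lower. None of the 37 genes passed the study's threshold, an absolute log2 fold change above 2 at an adjusted p under 0.05. Of all genes, 5.57% passed it. By an unadjusted p under 0.05 at any fold 8 members passed, Far2 among them, and with DESeq2 the count past the threshold was also 0. The share of all genes by an unadjusted p or with DESeq2 was not counted, for the members or for the other gene lists. In 0 of the 37 did the 4 Tp-BCC tumors all lie on one side of the 9 GEM-BCC tumors, as they did for 9.95% of all genes (above in 5.5%, below in 4.45%). The median log2 fold change of Tp-BCC over GEM-BCC was 0.05 for the 17 sterol enzyme genes (10 above 0 and 7 below) and -0.17 for the 13 tested fatty acid genes, against -0.03 for all tested genes.

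**Figure D1:**
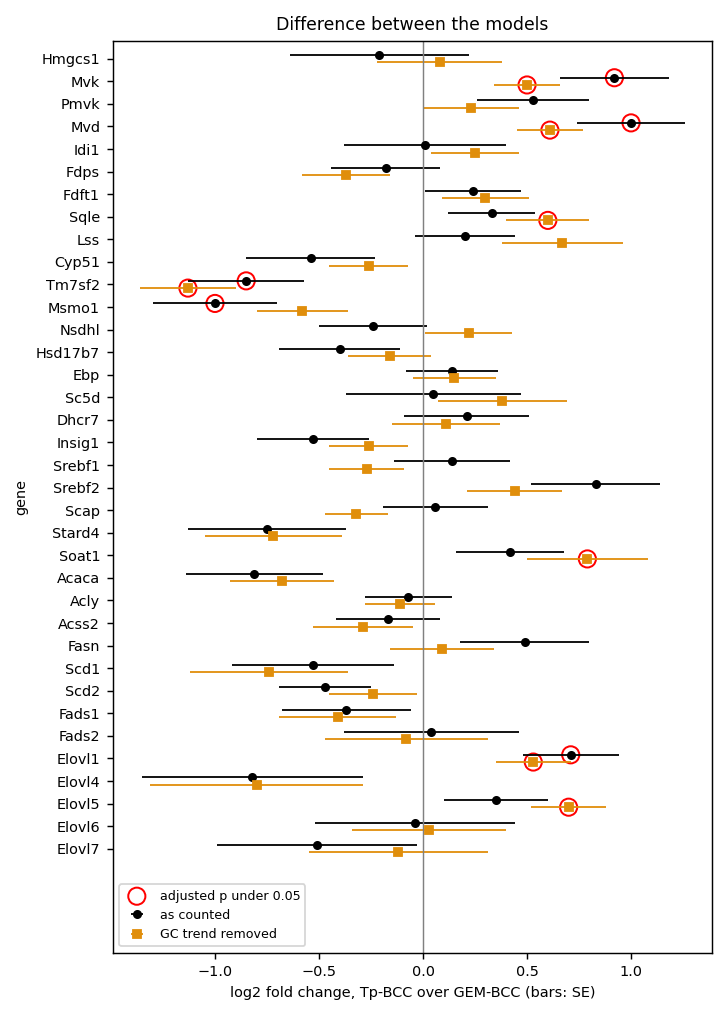
Log2 fold change of Tp-BCC (n = 4) over GEM-BCC (n = 9) for 36 tested genes in order of role, with SE as bars; black circles are values as counted, orange squares values after the trend on GC content was removed, and red rings mark an adjusted p under 0.05. Far2 is left out because Tp-BCC tumors held 2 counts of it in all. Mvk, Mvd, Elovl1 and Tm7sf2 are ringed on both scales, Msmo1 on the first and Sqle, Soat1 and Elovl5 on the second.

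In the mevalonate segment, Mvk and Mvd differed between the models. Mvk encodes mevalonate kinase, which phosphorylates mevalonate. Its level was 28.0, 58.9, 28.7 and 78.9 CPM in TP1 to TP4, and in GEM-BCC tumors the lowest was 18.7, the median 25.5 and the highest 33.04 CPM. TP2 and TP4 lay above every GEM-BCC tumor, and TP1 and TP3 lay among them. The mean was 48.6 ± 24.8 CPM (SD, n = 4) in Tp-BCC tumors and 25.7 ± 4.02 CPM (SD, n = 9) in GEM-BCC tumors, a log2 fold change of 0.92 (SE 0.26, edgeR adjusted p = 0.0207).

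Mvd encodes mevalonate diphosphate decarboxylase, which makes isopentenyl pyrophosphate, the building block of all isoprenoids. Its level was 33.1, 70.4, 35.4 and 83.8 CPM in TP1 to TP4, and 19.9 (lowest), 24.9 (median) and 35.5 CPM (highest) in GEM-BCC tumors. The same 2 tumors, TP2 and TP4, stood above the GEM-BCC range. The log2 fold change was 1.00 (SE 0.26, edgeR adjusted p = 0.0135).

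For both genes the difference in values as counted rested on TP2 and TP4. With TP1 and TP3 alone as the Tp-BCC tumors, the log2 fold change was 0.14 for Mvk (edgeR adjusted p = 0.716) and 0.30 for Mvd (adjusted p = 0.448). Leaving out TP4 gave 0.52 for Mvk (adjusted p = 0.150) and 0.67 for Mvd (adjusted p = 0.0846), and leaving out TP2 gave 0.78 (adjusted p = 0.0942) and 0.83 (adjusted p = 0.0722).

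The neighbours of these enzymes in the segment did not pass. Pmvk, whose kinase acts between the 2, had a log2 fold change of 0.53 (SE 0.27, edgeR adjusted p = 0.166). Hmgcs1, whose enzyme makes HMG-CoA, was at 106, 50.5, 129.5 and 18.7 CPM in TP1 to TP4 and ranged from 41.6 to 195 CPM in GEM-BCC tumors. TP4 alone lay below the GEM-BCC range, and TP1 and TP3 stood above the GEM-BCC median of 79.0 CPM. Idi1, the isomerase of isopentenyl pyrophosphate, was at 47.1, 12.4, 60.9 and 15.9 CPM in TP1 to TP4, likewise lower in TP2 and TP4, with a log2 fold change of 0.01 (SE 0.39). In values as counted, the 2 Tp-BCC tumors with most Mvk and Mvd were those with least Hmgcs1 and Idi1. With the GC trend removed, Idi1 was at 0.36, 0.2, 0.37 and 0.27 in TP1 to TP4, in log2 relative to the GEM-BCC mean. Hmgcs1 was then at 0.21, 0.55, 0.31 and -0.59, highest in TP2 and lowest in TP4.

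In the squalene and lanosterol segment, the lower genes were Msmo1 and Tm7sf2. Msmo1 encodes methylsterol monooxygenase, which oxidizes methyl groups of the sterol ring so that they can be removed. It stood at 45.2, 28.6, 53.9 and 20.7 CPM in TP1 to TP4, against 46.8 (lowest), 68.4 (median) and 105 CPM (highest) in GEM-BCC tumors. Only TP3 overlapped the GEM-BCC tumors. The log2 fold change was -1.0 (SE 0.30, edgeR adjusted p = 0.0272), and without TP2 or without TP4 the adjusted p was 0.0942 and 0.0855.

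Tm7sf2 encodes a sterol reductase of the step that follows lanosterol demethylation, an activity it shares with the lamin B receptor gene Lbr. Its level was 2.83, 4.69, 3.29 and 4.64 CPM in TP1 to TP4, and 4.40 (lowest), 6.83 (median) and 9.10 CPM (highest) in GEM-BCC tumors. TP1 and TP3 lay below all GEM-BCC tumors, and TP2 and TP4 exceeded only GEM2, the lowest of them. The log2 fold change was -0.85 (SE 0.28, edgeR adjusted p = 0.0433). The adjusted p exceeded 0.05 when any of 9 of the 13 tumors (GEM4 to GEM9 and TP1 to TP3) was left out, up to 0.112 without TP1, with values from -1.0 to -0.72. Lbr had a log2 fold change of -0.53 (SE 0.24, edgeR adjusted p = 0.131).

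**Figure D2:**
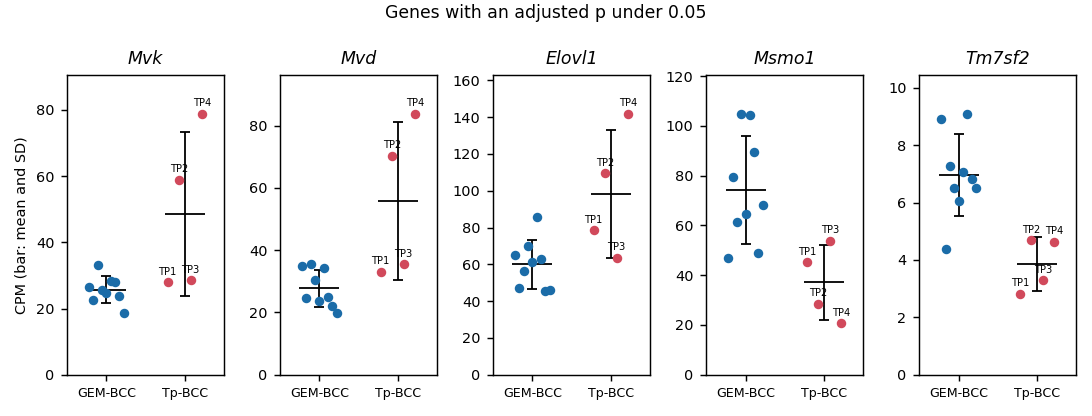
Level in CPM of the 5 genes with an adjusted p under 0.05, 1 panel per gene with its own axis from 0; each point is a tumor (9 GEM-BCC, 4 Tp-BCC) and the bar is the mean with SD. For Mvk and Mvd, TP2 and TP4 stand above all GEM-BCC tumors while TP1 and TP3 lie within them; for Tm7sf2, TP1 and TP3 are the lowest.

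The remaining 10 sterol enzyme genes did not pass. Their log2 fold changes ran from -0.54 for Cyp51 (SE 0.31, adjusted p = 0.238), the lanosterol demethylase, to 0.33 for Sqle (SE 0.21, adjusted p = 0.284), the squalene epoxidase and a control point of the pathway. The squalene synthase Fdft1 was at 0.24 and the lanosterol synthase Lss at 0.20, and of the later enzymes Nsdhl was at -0.24, Hsd17b7 at -0.40, Ebp at 0.14, Sc5d at 0.05 and Dhcr7, which makes cholesterol in the last step, at 0.21. Farnesyl pyrophosphate synthase, Fdps, was at -0.18. Compared per length of the longest coding transcript, Fdps had the highest level of the 17 in both models (55.1 CPM per kb in GEM-BCC and 48.5 in Tp-BCC tumors), followed by Dhcr7 (39.1 and 45.4 CPM per kb). Of all 100-base words of the Fdps transcript in GENCODE vM21, 75.8% also occurred there in transcripts of other genes, most of them in Gm43738. The share was 20% for Idi1 and 42.8% for Acaca, and at most 2.78% for the other members. The transcript set to which the authors aligned was not searched, so the count and rank of Fdps are uncertain.

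Among the control genes, Srebf2 and Srebf1 were set against each other. Srebf2 was at 260, 557, 264 and 659 CPM in TP1 to TP4 and at 118 (lowest), 229 (median) and 388 CPM (highest) in GEM-BCC tumors. TP2 and TP4 lay above the GEM-BCC range and the other two within it, with a log2 fold change of 0.83 (SE 0.31) that did not pass (edgeR adjusted p = 0.0687). Srebf1 was at 80.2, 177, 82.2 and 223 CPM in TP1 to TP4, and TP1 and TP3 lay just below the lowest GEM-BCC tumor at 85.0 CPM while TP2 and TP4 lay above the highest at 173 CPM. Its log2 fold change was 0.14 (SE 0.28, adjusted p = 0.753).

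Within the Tp-BCC tumors both genes were highest in TP2 and TP4, and their ratio did not overlap between the models. Srebf2 was 3.25, 3.14, 3.21 and 2.95 times Srebf1 in TP1 to TP4, and 1.38 (lowest), 1.80 (median) and 2.50 times (highest) in GEM-BCC tumors, as ratios of CPM not corrected for length. The mean log2 ratio was 1.65 ± 0.06 (SD, n = 4) in Tp-BCC and 0.89 ± 0.28 (SD, n = 9) in GEM-BCC tumors, a difference of 0.76 (exact permutation test over 715 splits of the tumors, 2-sided, p = 0.0014, the smallest those splits can give). Adjusted over the 5 gene ratios computed, p was 0.00699, and with 1 mean per mouse the exact permutation p was 0.00303 (330 splits, difference 0.72, adjusted 0.0152). The log2 ratio differed by 1.13 for Mvd to Idi1 (exact permutation p = 0.0923, adjusted 0.154), by 1.21 for Mvk to Hmgcs1 (0.136, adjusted 0.170) and by -0.28 for Scd1 to Scd2 (0.480), and the Fads pair is given with its genes. The 5 pairs were chosen after the values had been seen, so these p-values do not cover the choice among all possible pairs. The permutations also treat the 4 Tp-BCC tumors, which are of 1 line, as separate units. After the trend on GC content was removed the difference was again 0.76, and it ranged from 0.71 to 0.81 when each tumor was left out in turn.

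**Figure D3:**
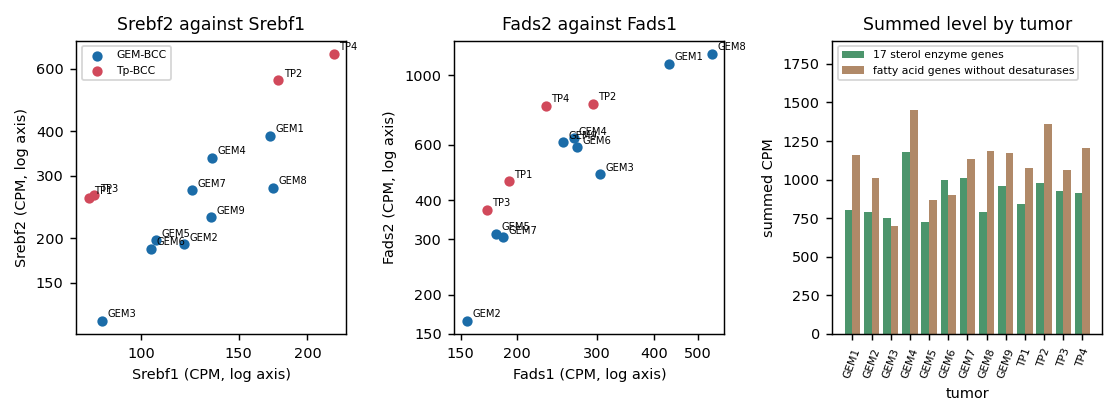
Left and centre, CPM of Srebf2 against Srebf1 and of Fads2 against Fads1 on log axes, 1 point per tumor (blue GEM-BCC, red Tp-BCC); right, summed CPM per tumor of the 17 sterol enzyme genes and of the synthesis and elongation genes of fatty acids. The 4 Tp-BCC tumors lie above the GEM-BCC tumors for a given Srebf1 level, and both sums overlap between the models.

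The other control and transport genes did not pass. Scap, the SREBP escort, had a log2 fold change of 0.06 (SE 0.25), and Insig1, the retention protein and a target of SREBP, one of -0.53 (SE 0.27, adjusted p = 0.179). Stard4, which carries sterol between membranes, was at 38.1, 14.98, 39.3 and 6.64 CPM in TP1 to TP4 and at 30.1 to 59.6 CPM in GEM-BCC tumors. TP2 and TP4 were below every GEM-BCC tumor, and the log2 fold change was -0.75 (SE 0.38, adjusted p = 0.168). Soat1, which esterifies cholesterol for storage, had a log2 fold change of 0.42 (SE 0.26, edgeR adjusted p = 0.263). Per length, Srebf2 had the highest level of the 6 genes in both models, at 48.1 CPM per kb in GEM-BCC and 85.7 in Tp-BCC tumors.

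Of the 4 fatty acid synthesis genes, 0 passed with edgeR, against 1, Acaca, by an unadjusted p under 0.05 and with DESeq2. Acaca, the rate-setting carboxylase, was at 89.4, 72.5, 90.5 and 25.4 CPM in TP1 to TP4 and at 59.6 (lowest), 127 (median) and 187 CPM (highest) in GEM-BCC tumors. All Tp-BCC tumors were below the GEM-BCC median and only TP4 was below the range, with a log2 fold change of -0.81 (SE 0.33, edgeR adjusted p = 0.0928; with DESeq2 -0.83, adjusted p = 0.0491). Fasn, the palmitate synthase, was at 238, 517, 260 and 635 CPM in TP1 to TP4, against 139.7 to 428 CPM in GEM-BCC tumors. TP2 and TP4 again stood above the range, and the log2 fold change was 0.49 (SE 0.31, adjusted p = 0.282). Acly, with the highest level per length of the 4 genes (82.5 CPM per kb in GEM-BCC and 78.5 in Tp-BCC tumors), had a log2 fold change of -0.07 (SE 0.21), and Acss2 one of -0.17 (SE 0.25).

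The desaturase genes Fads2 and Scd2 had the highest levels per length of all 39 genes. Fads2, which starts the conversion of essential fatty acids to longer polyunsaturated ones, was at 189 CPM per kb in GEM-BCC and 194 in Tp-BCC tumors, and Scd2, which makes monounsaturated fatty acids, at 184 and 133 CPM per kb. Scd2 was at 655, 932, 651 and 673 CPM in TP1 to TP4 and at 709 to 1360 CPM in GEM-BCC tumors. TP1, TP3 and TP4 were below all GEM-BCC tumors and TP2 was among them (log2 fold change -0.47, SE 0.22, adjusted p = 0.149). Its paralog Scd1, the main form of sebaceous glands, was at 69.5, 206.5, 58.6 and 41.5 CPM in TP1 to TP4 and at 85.2 to 242 CPM in GEM-BCC tumors. TP2 again stood apart from the other Tp-BCC tumors, and the log2 fold change was -0.53 (SE 0.39, adjusted p = 0.357), or -1.29 (adjusted p = 0.0312) without TP2.

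Fads2 varied 7.07-fold among GEM-BCC tumors, from 165 CPM in GEM2 to 1168 CPM in GEM8, with GEM1 at 1088 CPM. Its neighbour Fads1, the next desaturase of the same series, ranged from 155 CPM in GEM2 to 538 CPM in GEM8. Over the 7 GEM-BCC mice the 2 genes correlated with Pearson's r = 0.911 (exact permutation p = 0.0129, adjusted over 6 pairs 0.0387) and Spearman's rho = 0.679 (exact permutation p = 0.110), and r was 0.760 without the 2 mice farthest from the median of Fads1. The paired genes were chosen after values had been seen, and the adjustment over 6 pairs does not cover that choice. Fads2 had a log2 fold change of 0.04 (SE 0.42) and Fads1 one of -0.37 (SE 0.31), and the log2 ratio of Fads2 to Fads1 was 0.48 higher in Tp-BCC tumors (exact permutation p = 0.0559, adjusted 0.140).

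Among the other 5 pairs over GEM-BCC mice, Srebf1 and Fasn had r = 0.879 (exact permutation p = 0.0194, adjusted 0.0389), rho = 0.857 (exact permutation p = 0.0238) and r = 0.781 without the 2 farthest mice. Msmo1 and Cyp51, enzymes that act after lanosterol, had r = 0.927 (exact permutation p = 0.00218, adjusted 0.0131), rho = 0.893 (exact permutation p = 0.0123) and r = 0.783 without the 2 farthest mice. For Spearman's rho the p adjusted over the 6 pairs was 0.0714 for both of these pairs and 0.219 for Fads1 and Fads2, so that no rank correlation passed. On values with the GC trend removed the 3 adjusted p-values were 0.0530, 0.0530 and 0.0635, and the relation of Msmo1 and Cyp51 then rested on 2 mice, with r = 0.0828 without them. Insig1 and Sqle had r = 0.766 (exact permutation p = 0.0341, adjusted 0.0512), which was 0.291 without 2 mice. Scd1 and Scd2 had r = -0.0666 (exact permutation p = 0.879), and Srebf2 and Hmgcs1 r = -0.142 (exact permutation p = 0.788).

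Of the elongases, Elovl1 was higher in Tp-BCC tumors. Elovl1 lengthens saturated and monounsaturated fatty acids to the very long chains used in sphingolipids. It was at 78.5, 109.7, 63.7 and 142 CPM in TP1 to TP4 and at 45.6 (lowest), 61.1 (median) and 86.0 CPM (highest) in GEM-BCC tumors. All 4 Tp-BCC tumors were above the GEM-BCC median, TP2 and TP4 above the range. The log2 fold change was 0.71 (SE 0.23, edgeR adjusted p = 0.0396), and the adjusted p exceeded 0.05 when any of 9 of the 13 tumors (GEM1 to GEM3, GEM5, GEM7 to GEM9, TP2 and TP4) was left out, up to 0.228 without TP4 (0.43). With counts summed per mouse the log2 fold change was 0.67 (edgeR adjusted p = 0.0723).

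The other elongases did not pass. Elovl5, of polyunsaturated fatty acids, had the highest level per length of the 6 genes (45.9 CPM per kb in GEM-BCC and 58.4 in Tp-BCC tumors) and a log2 fold change of 0.35 (SE 0.25, edgeR adjusted p = 0.339). Elovl6, which lengthens palmitate, spread 11.2-fold within the Tp-BCC tumors, from 85.3 CPM in TP3 to 7.64 CPM in TP4, against 24.3 to 66.2 CPM in GEM-BCC tumors. Of the 5 tested elongases, Elovl4 and Elovl7 spread most among GEM-BCC tumors, Elovl4 9.98-fold, from 3.34 CPM in GEM2 to 33.4 CPM in GEM4, and Elovl7 9.12-fold. Their log2 fold changes were -0.82 (SE 0.53) and -0.51 (SE 0.48).

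The sebaceous genes were at or near the floor of detection. Far2, a reductase that makes the fatty alcohols of wax esters, had 81 counts in the 9 GEM-BCC tumors, at most 23 in any of them, and 2 counts in the 4 Tp-BCC tumors, a ratio of Tp-BCC to GEM-BCC of 0.110 (95% exact binomial interval 0.0131 to 0.411). Elovl3, the elongase of sebaceous and brown fat lipids, had 106 and 3 counts, a ratio of 0.126 (0.0256 to 0.379). Mc5r, the melanocortin receptor of sebocytes, had 61 and 16 counts, a ratio of 1.17 (0.629 to 2.05). These intervals cover counting error only and take no account of the spread between tumors; GEM4 and GEM9 had no count of Far2 or Elovl3, so the models overlapped. Far2 entered the test through GEM-BCC tumors alone, and edgeR gave it an adjusted p of 0.107.

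**Figure D4:**
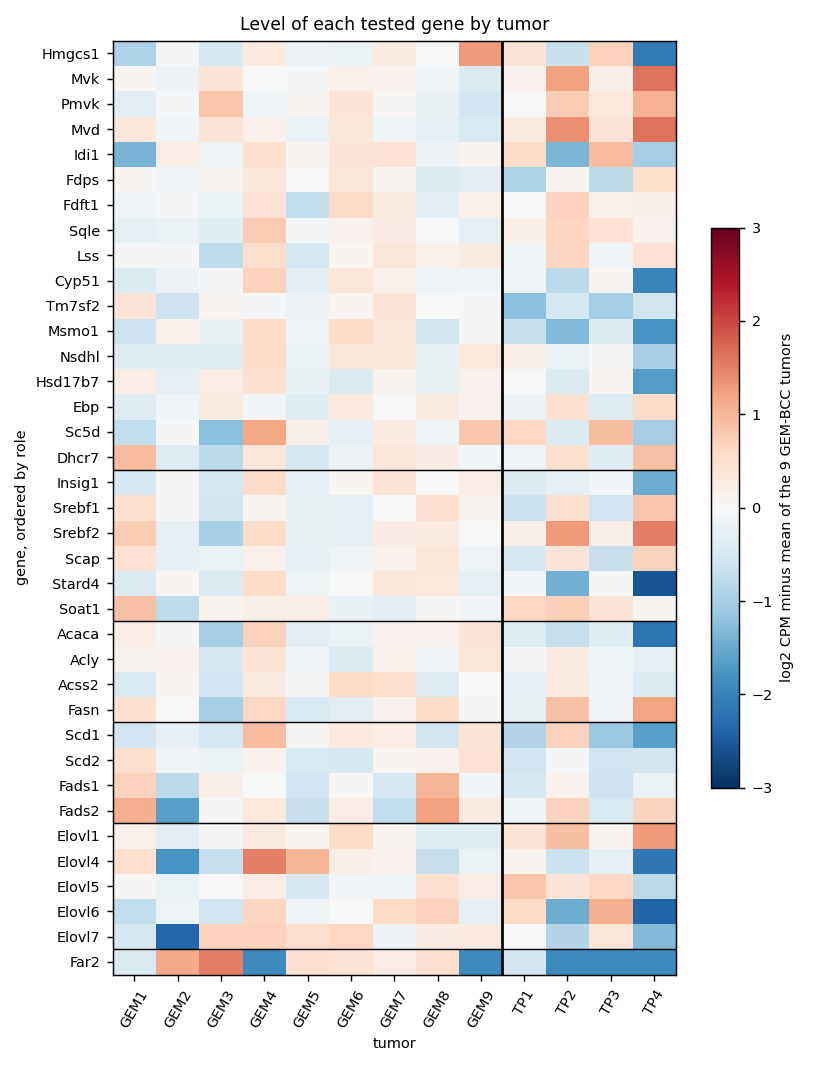
Log2 CPM of the 37 tested genes (rows, by role, black lines between roles) in each of the 13 tumors (columns) as the difference from the mean of the 9 GEM-BCC tumors, red above and blue below; the vertical line divides GEM-BCC from Tp-BCC tumors. TP2 and TP4 show Hmgcs1, Idi1, Stard4 and Elovl6 in blue and Mvk, Mvd and Srebf2 in red, and GEM4 is the highest of the 9 GEM-BCC tumors in 8 of the 17 sterol enzyme genes.

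The split of TP1 and TP3 from TP2 and TP4 went along with the GC content of the transcripts, the percentage of G and C bases. Across the 37 tested genes, Spearman's rho of GC content with the level relative to the GEM-BCC mean was -0.306 in TP1, 0.708 in TP2, -0.353 in TP3 and 0.720 in TP4, as a description over genes that share 1 library each. Across all 14095 tested genes with a GC content, the rho of a tumor's level with GC content had the same signs, at -0.389, 0.594, -0.473 and 0.591. Among GEM-BCC tumors it was 0.365 in GEM1 and -0.312 to -0.150 in the other 8. Mvk, Mvd, Srebf2, Scap, Srebf1 and Fasn, at 58.4 to 59.4% GC, were higher in TP2 and TP4 than in TP1 and TP3, and Idi1, Hmgcs1 and Elovl6, at 40.9 to 47.5% GC, were lower there.

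**Figure D5:**
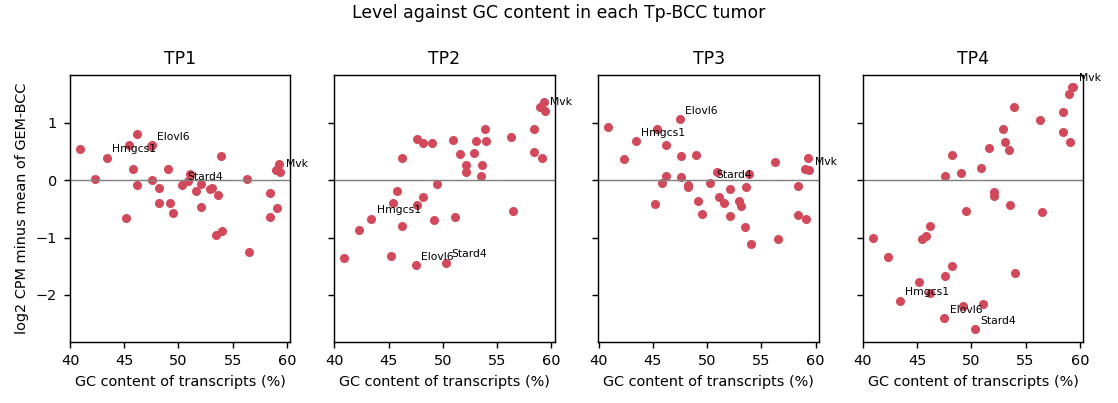
Level of 36 tested genes (1 point per gene, Far2 left out) in each Tp-BCC tumor, as log2 CPM minus the mean of the 9 GEM-BCC tumors, against the GC content of the gene's transcripts in percent. The points fall from left to right in TP1 and TP3 (rho -0.306 and -0.353) and climb in TP2 and TP4 (0.708 and 0.720).

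Removing each tumor's smoothed trend on GC content narrowed the spread among the Tp-BCC tumors. The trend was fitted to the same data, so some narrowing follows from the fit and is no test of GC content. The median SD of the 37 genes over the 4 Tp-BCC tumors went from 0.68 to 0.30 on the log2 scale, and the SD decreased in 31 of the 37 genes. Over all tested genes the median went from 0.58 to 0.35, and the SD decreased in 10629 of the 14095 with a GC content. Over GEM-BCC tumors the median SD of the 37 genes went from 0.41 to 0.38. On this scale 7 of the 37 genes (18.9%) had an adjusted p under 0.05, compared with 28.6% of all genes, 6 of them higher in Tp-BCC tumors (15.2% of all genes) and 1 lower (13.4% of all genes).

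Mvk (0.50, edgeR adjusted p = 0.0263), Mvd (0.61, adjusted p = 0.0127), Elovl1 (0.53, adjusted p = 0.0362) and Tm7sf2 (-1.13, adjusted p = 0.00257) passed on both scales, in log2 fold changes. Relative to the GEM-BCC mean, Mvd was then at 0.44, 0.78, 0.55 and 0.74 in TP1 to TP4 and at most 0.41 in GEM-BCC tumors. Mvk was at 0.29, 0.62, 0.35 and 0.75, so that TP1 and TP3 lay below the highest GEM-BCC tumor at 0.4. Msmo1 had a log2 fold change of -0.58 on this scale (edgeR adjusted p = 0.0561). Sqle (0.60, adjusted p = 0.0380), Soat1 (0.79, adjusted p = 0.0497) and Elovl5 (0.70, adjusted p = 0.00895) passed only with the trend removed. The SD over Tp-BCC tumors rose on removal for Sqle (0.24 to 0.38) and Soat1 (0.28 to 0.47), and fell for Elovl5 (0.72 to 0.3). The median log2 fold change of the sterol enzyme genes was then 0.22, against -0.02 for all genes. The part of GC content in the differences between the models was not tested further.

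GEM-BCC tumors differed among themselves over the pathway as a whole. Among these 9 tumors, GEM4 had the highest level in 8 of the 17 sterol enzyme genes and the highest sum (1182 CPM), GEM1 and GEM3 had the lowest level in 5 genes each, and GEM5 had the lowest sum (725 CPM). The summed level of the 4 desaturases was highest in GEM1 (2966 CPM) and GEM8 (2873 CPM), whose sterol sums were 806 and 793 CPM, while GEM2 and GEM5 were low in both sums (1332 and 1336 CPM for desaturases, 788 and 725 CPM for sterol enzymes).

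Markers of other cell types were summed in each tumor, and of these sums only that of adipocyte genes did not overlap between the models. The summed level of 10 adipocyte genes was 7.75 to 13.9 CPM in GEM-BCC tumors and 36.2, 379, 31.3 and 56.5 CPM in TP1 to TP4. All 7 tested adipocyte genes were higher in Tp-BCC tumors with edgeR (4 with DESeq2), where 11.1% of all genes were higher. Of these 7, Cfd, Cidec and Car3 reached 10 counts in Tp-BCC tumors alone and entered the test through them, and 4 reached it in both models. Lep, Retn and Cidec had at most 3 counts in every GEM-BCC tumor. TP2, with the most adipocyte RNA, was also the Tp-BCC tumor with most Scd1 and Scd2. Sebocyte genes, 10 in number, summed to 54.5 to 1475 CPM in GEM-BCC and 47.7 to 83.5 CPM in Tp-BCC tumors, with 3 of 9 tested lower (8.35% of all genes were), among them Krt79. Krt79 alone was at 17.6 to 1320 CPM in GEM-BCC and 5.83 to 14.8 CPM in Tp-BCC tumors, and without it the sums were 36.9 to 159 and 37.4 to 77.2 CPM and overlapped. Suprabasal keratinocyte genes summed to 149.9 to 889 CPM in GEM-BCC and 129 to 158 CPM in Tp-BCC tumors. Of these 8 genes 3 were lower (8.35% of all genes were), of which Klk7 entered the test through GEM-BCC tumors alone. Skeletal muscle genes reached 126 CPM in TP4 against at most 9.64 CPM in the other 12 tumors. GEM4, the tumor with most sterol enzyme RNA, had the highest suprabasal sum. Macrophage genes summed to 83.1 to 432 CPM in GEM-BCC and 224 to 450.1 CPM in Tp-BCC tumors (1 of 8, or 12.5%, higher). Fibroblast genes summed to 11990 to 48990 and 15540 to 28030 CPM (1 of 6 higher, 1 lower). Of all genes, 11.1% were higher and 8.35% lower. The part of these cells in the differences of the lipid genes was not tested, and in whole tumors fewer cells of a type cannot be told from less RNA per cell.

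Genes around the 2 pathways were counted in 4 further lists. Of 29 tested genes of the isoprenoid branches and sterol homeostasis, 1 was higher (3.45%, against 11.1% of all genes) and 2 were lower in Tp-BCC tumors (6.90%, against 8.35%), with a median log2 fold change of -0.28. By an unadjusted p under 0.05, 3 were higher and 6 lower, and with DESeq2 2 and 4. In these lists the share of all genes was not counted by either measure. With the GC trend removed, 2 were higher and 3 lower (15.2% and 13.4% of all genes), and the median was -0.02. Scarb1, the receptor for high-density lipoprotein, rose from a mean of 150.3 ± 27.5 CPM (SD, n = 9) to 367 ± 169 CPM (SD, n = 4; log2 fold change 1.29, SE 0.24, edgeR adjusted p = 0.00214). Abca1, the transporter that exports cholesterol, fell from 155 ± 83.9 to 29.5 ± 20.5 CPM (-2.40, SE 0.57, adjusted p = 0.00944). Rnf139, a ubiquitin ligase of the endoplasmic reticulum, had -0.98 (SE 0.31, adjusted p = 0.0394).

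Of 30 tested genes of fatty acid activation, storage and supply, 1 was higher (3.33%, against 11.1% of all genes) and 2 were lower (6.67%, against 8.35%), with a median of -0.07. By an unadjusted p under 0.05, 5 were higher and 5 lower, and with DESeq2 1 and 2. With the GC trend removed, 3 were higher and 3 lower (15.2% and 13.4% of all genes), and the median was -0.22. Dgat2, which makes triglycerides, had a log2 fold change of 1.12 (SE 0.32, edgeR adjusted p = 0.0252). Hacd3, a dehydratase of the elongation cycle, had -1.12 (SE 0.28, adjusted p = 0.0129), and Gpam, the mitochondrial enzyme that begins glycerolipid synthesis, -0.96 (SE 0.27, adjusted p = 0.0231).

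Of 20 tested genes of fatty acid oxidation, 3 were lower (8.35% of all genes were) and 0 higher (11.1% of all genes) by edgeR's adjusted p. By an unadjusted p under 0.05, 4 were lower and 4 higher, and with DESeq2 4 were lower and 1 higher. The median was -0.17. With the GC trend removed, 1 was higher and 4 were lower (15.2% and 13.4% of all genes), and the median was -0.07. Acadvl, the dehydrogenase that opens mitochondrial oxidation of long chains, had a log2 fold change of -0.79 (SE 0.24, edgeR adjusted p = 0.0331), and Ehhadh, of peroxisomal oxidation, -1.03 (SE 0.28, adjusted p = 0.0203). Ppargc1a, a coactivator of mitochondrial genes, is the other of the 3 genes lower by edgeR's adjusted p in values as counted. It had 375 counts in GEM-BCC tumors and 6 in Tp-BCC tumors and entered the test through GEM-BCC tumors alone, which leaves 2 lower genes among the 19 that reached 10 counts in both models.

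Of 17 tested genes of skin sphingolipids and barrier lipids, 6 were lower (8.35% of all genes were) and 0 higher (11.1% of all genes) by edgeR's adjusted p (6 lower and 1 higher by an unadjusted p under 0.05, 6 and 0 with DESeq2), with a median of -0.47. With the GC trend removed, 3 were lower and 2 higher (13.4% and 15.2% of all genes). Cyp4f39 and Degs2 entered the test through GEM-BCC tumors alone, and of the 15 genes that reached 10 counts in both models 4 were lower. Cyp4f39, which hydroxylates the ultra-long fatty acids of epidermal acylceramides, had 2138 counts in GEM-BCC tumors, from 3 to 587 in each, and 3 in all Tp-BCC tumors. Degs2, which makes phytoceramides, had 119 and 2 counts. Abca12, the lipid transporter of lamellar granules, had a log2 fold change of -3.29 (SE 1.01, edgeR adjusted p = 0.0323). Sptlc1 and Sptlc2, subunits of the enzyme that begins sphingolipid synthesis, had -0.62 (adjusted p = 0.0216) and -0.63 (adjusted p = 0.0445), and with the GC trend removed -0.15 (adjusted p = 0.668) and -0.14 (adjusted p = 0.585). Of the 8 suprabasal keratinocyte markers, 3 were also lower in Tp-BCC tumors (8.35% of all genes were), while their sums, given above, overlapped between the models. The part of these cells in the differences was not tested.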

How the data were processed

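Poly(A) RNA of 13 whole tumors was sequenced, 1 library per tumor. The authors aligned reads with Bowtie2 2.3.4.3 to GRCm39 transcripts and deposited RSEM 1.3.1 expected counts per gene, neither rounded nor normalized; reads fitting more than 1 gene are shared out between them. Groups came from the library names in the labels. Genes without a value in a model (1932 valued in GEM-BCC only, 65 in Tp-BCC only, 2416 in none) were left out, and 0 columns were unused.

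Counts were rounded in R 4.3.3, a gene entered the test when 4 or more tumors held 10 or more counts of it, the models were compared with edgeR 4.0.16 (TMM, robust quasi-likelihood F test), and p-values were adjusted by Benjamini-Hochberg over all tested genes. The SE is the log2 fold change divided by the square root of F. CPM use TMM-scaled library sizes, and log2 CPM a prior count of 2. P-values measure the spread between tumors, of which GEM2 and GEM3, and GEM7 and GEM8, share a mouse. Total counts of 15388027 to 32629102 set the precision, and at 3 counts or fewer a level is at the floor of detection.

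The GC trend is a lowess curve (span 0.3) of a tumor's deviations from each gene's mean log2 CPM on the median GC content of protein-coding transcripts in GENCODE vM21, entered as an offset. Lengths are those of the longest such transcript. GENCODE vM21 and RefSeq promoters annotate GRCm38, so no coordinate of the authors' build is given. The script was tested on simulated data. Alternatives were DESeq2 1.42.0 and its size factors, unscaled library sizes, other filters, genes without a value set to 0, dispersions that are not robust, counts per mouse, a replicate block, GC correction and each tumor left out in turn. Added after seeing the data were TP1 and TP3 or TP2 and TP4 as the Tp-BCC tumors, and checks of ratios and correlations.

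The members and lists were chosen with earlier results of these data known. Any member may be named. Values by tumor are given for members with an adjusted p under 0.05, and others shown by tumor were chosen after their values were seen; from companion lists at most the 5 genes of smallest adjusted p under 0.05 are named, and from marker lists the best-expressed genes and those at the floor.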

Additional observations from a re-analysis of the deposited data

Results flagged for a closer look

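Of 74 sets of values (the tested members in each model), 4 held a tumor whose distance from its nearest neighbour was a large share of the whole range, or 5.41%; chance alone gives about 1 in 20. Idi1 was at 12.1 CPM in GEM1, where the next GEM-BCC tumor was at 28.3 CPM. Scd2 was at 932 CPM in TP2, where the next Tp-BCC tumor was at 673 CPM. Elovl7 was at 0.727 CPM in GEM2, where the next was at 2.83 CPM. Far2 was at 0.118 CPM in TP1, its 2 counts being the only ones in Tp-BCC tumors. GEM1 and TP2 both had levels that climbed with GC content (rho 0.365 and 0.594 over all tested genes), and TP2 had the highest summed level of adipocyte genes.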

How the results depend on the processing

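Under the alternatives for the whole comparison, the number of members past the study's thresholds was 0 throughout. Library numbers do not mark paired mice: deviations of tumors with the same number correlated at -0.381, -0.122, -0.101 and -0.179, and no tumor correlated best with its own number. The replicate block joins tumors of the same number, and GEM5 to GEM9, alone in their blocks, add nothing to its comparison of the models. With the replicate block, 0 members were higher, 0 lower, and the sterol median was 0.19. With GC correction, 6 were higher and 1 lower (sterol median 0.22), against 15.2% and 13.4% of all genes. For the other settings of this paragraph the share of all genes was not counted, so their counts cannot be set against it. The pairs of Tp-BCC tumors that follow were chosen after values had been seen. With TP1 and TP3 as the Tp-BCC tumors 1 was higher and 2 were lower, Tm7sf2 and Fdps (-0.91, edgeR adjusted p = 0.0309), and with TP2 and TP4, 7 were higher and 8 lower (sterol median 0.30). Leaving out 1 tumor gave 0 higher members (without TP2 or TP4) to 4 (without TP1), 1 lower (without any of GEM4 to GEM9 or TP1 to TP4) to 3 (without GEM3), 0 past the study's thresholds, a sterol median of -0.07 to 0.16 and a fatty acid median of -0.35 to -0.10.

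Signs turned only in members that did not pass in the comparison of all tumors. Log2 fold changes of the other sign were, with DESeq2 or its size factors, 0 for Idi1; with library size, -0.06 for Scap, -0.06 for Fads2 and 0.01 for Elovl6; without a filter or with the filter of 10 tumors, -0.01 for Idi1; per mouse, -0.03 for Sc5d, 0 for Fads2 and 0.02 for Elovl6; with the replicate block, -0.03 for Idi1, -0.05 for Scap and 0.03 for Acss2; with GC correction, 0.08 for Hmgcs1, 0.22 for Nsdhl, -0.27 for Srebf1, -0.32 for Scap, -0.08 for Fads2 and 0.03 for Elovl6. With TP1 and TP3 they were 0.41 for Hmgcs1, -0.18 for Lss, 0.03 for Nsdhl, 0 for Hsd17b7, -0.31 for Ebp, -0.34 for Dhcr7, -0.65 for Srebf1, -0.60 for Scap, -0.24 for Fasn, -0.51 for Fads2 and 0.75 for Elovl6, and with TP2 and TP4, -1.26 for Idi1 (adjusted p = 0.0207 with edgeR), 0.30 for Fdps, -0.84 for Sc5d and -0.10 for Elovl5. The correlation of Srebf2 and Hmgcs1 was 0.326 with GC correction. Leaving out 1 tumor gave ranges across 0 for Dhcr7 (-0.10 to 0.38), Ebp (-0.07 to 0.29), Elovl6 (-0.63 to 0.29), Fads2 (-0.17 to 0.22), Fdps (-0.57 to 0.01), Hmgcs1 (-0.59 to 0.09), Idi1 (-0.43 to 0.26), Sc5d (-0.28 to 0.28), Scap (-0.26 to 0.25) and Srebf1 (-0.23 to 0.33). The cause was not tested.

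Elovl1 did not pass with library size (0.59, edgeR adjusted p = 0.0588) or per mouse (0.67, adjusted p = 0.0723). Under the replicate block, to which GEM5 to GEM9 add nothing, edgeR's adjusted p of the 5 genes was 0.438 to 0.575. Log2 fold changes were then 0.72 for Mvk, 0.73 for Mvd, -0.80 for Tm7sf2, -1.0 for Msmo1 and 0.67 for Elovl1. With 4 Tp-BCC tumors of 1 line and about 1 read for every 2 of a GEM-BCC tumor, genes near the floor allow no firm fold, and model, batch and host site cannot be told apart.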
